A study of Homo sapiens with 4 samples.

Results

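The comparison set the long-cultured P2 group of H9 human embryonic stem cells, passages in the 100s, against the early P1 group, passages in the 40s, and asked which genes and gene classes separate the first long-culture step. H9 (WA09) is an established human embryonic stem cell line derived from a blastocyst. Total RNA of each group was hybridised to 1 Illumina whole-genome bead array, so the comparison took 2 of the series' 4 arrays. The other 2 arrays hold P3, passages in the 200s, and P4, passages in the 300s. Their levels are given for orientation only, and 4 intensities printed in a row stand for P1, P2, P3 and P4 in that order. All 4 groups are the same line, and the labels name no added gene, deletion or treatment in any of them. Nor do they give the cultures behind each RNA.

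Pluripotent stem cells divide without limit in culture, and long culture is known to favour variants that grow or survive better. Silencing by DNA methylation at imprinted and other promoters differs between lines and passages and can persist through later divisions. Imprinted genes are expressed from the copy of 1 parent, p53 target genes respond to DNA damage and stress, and metallothioneins bind zinc and copper and are induced by those metals.

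Of the 19951 genes with a named probe, 11803 were above the detection limit on at least 1 of the 2 arrays and could be compared, 10888 of them on both. The limit was the value that 60 percent of an array's probes do not exceed, which was 38.4 intensity units in P1 and 38.5 in P2. Values under it were set to it, so a gene under the limit on its dimmer array has a fold that is a lower bound, written as "at least". This held for 915 of the compared genes. Every fold below is between arrays for 1 probe. Intensities of different probes were put together only in marker sums, where bright probes weigh most, and in statements of brightness. With 1 array a side there is no replicate spread, so no difference was tested and no error can be attached to a value. A difference here describes these 2 arrays.

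All 15 markers of undifferentiated human embryonic stem cells were above the limit on both arrays, among them POU5F1, NANOG, SOX2, LIN28A and DNMT3B. Their summed intensity was 94744 in P1 and 87161 in P2. None of the 7 trophoblast and amnion markers was above the limit on either array, and of the mesoderm and endoderm markers only KDR and AFP were. Of the 7 neural markers, NES, TUBB3, DCX, ELAVL3 and STMN2 were above the limit on both arrays and PAX6 and SOX1 on neither, with a summed intensity of 4785 in P1 and 6088 in P2. Of the 8 fibroblast markers, COL1A1, COL1A2 and S100A4 were above the limit on both arrays, COL3A1, LUM, DCN, POSTN and FAP on neither, and the sums were 2478 and 2594. In bulk RNA, fewer cells of a type and less RNA per cell cannot be told apart, here and in what follows.

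Most genes lay close to equal. The median log2 difference, P2 minus P1, was 0.02 over the 11803 genes, and 9941 genes, 84.2 percent, were within 1.5-fold. A 1.5-fold difference or more was seen upward in 955 genes (8.09 percent) and downward in 907 (7.68 percent). In P2, 255 genes (2.16 percent) lay 2-fold or more above P1 and 258 (2.19 percent) as far below it, 513 (4.35 percent) in all. Bounds made up 40 of the higher and 63 of the lower genes. At 4-fold and above the balance differed, with 9 genes higher and 20 lower, and at 10-fold and above 1 gene was higher and 8 were lower. GANAB at 2.001-fold higher and ASS1 at 2.002-fold lower were the genes just inside the 2-fold limit, with CWC25 and C12orf60 just outside it. Brightness moved with these counts. Among the dimmest 2951 of the compared genes 4.13 percent were at least 2-fold higher and 4.24 percent lower, and among the brightest 2951 they were 0.576 and 0.644 percent. The part of low intensities in the 2-fold calls of dim genes was not tested.

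**Figure D1:**
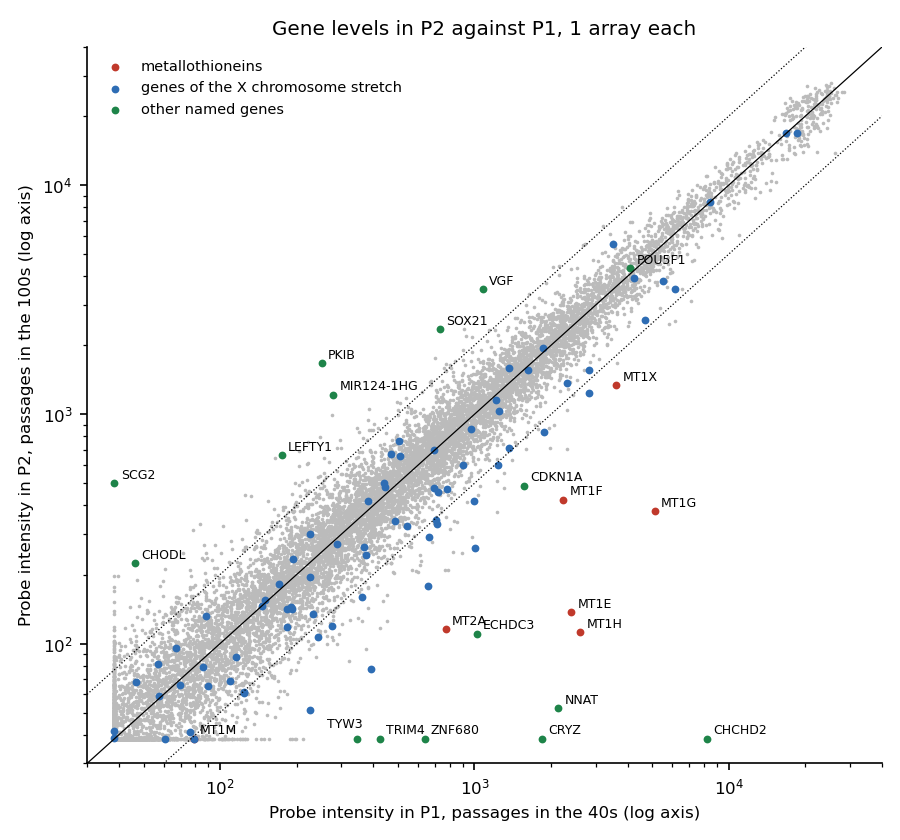
Probe intensity of each of the 11803 compared genes in P1 (horizontal, log axis) and P2 (vertical, log axis), 1 array each, with values under the limit drawn at the limit. The solid line marks equal levels and the dotted lines 2-fold. CHCHD2, CRYZ, NNAT and most metallothioneins lie far below the lines, and SCG2, PKIB and CHODL above them. MT1X and MT1M lie nearer the lower dotted line.

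Several of the widest differences were in genes present in P1 and under the limit in P2. CHCHD2, which encodes a protein of the mitochondrial intermembrane space that also acts in the nucleus, had intensities of 8173, 34.6, 34.5 and 26.0 in P1 to P4, and was at least 212-fold lower in P2. It was bright in P1 alone. CRYZ, a quinone reductase of the crystallin family, had 1839, -4.16, -9.73 and -2.75 in P1 to P4 (at least 47.8-fold lower in P2). TYW3, an enzyme that modifies phenylalanine transfer RNA, had 344, -8.88, -10.6 and -11.6 in P1 to P4 (at least 8.93-fold lower). CRYZ and TYW3 are neighbours on chromosome 1, and their nearest compared neighbours on either side differed little, ZRANB2 by a log2 difference of 0.28 and ACADM by -0.10. ZNF680, a zinc finger gene on chromosome 7, had 636, -6.07, -5.49 and 0.015 in P1 to P4 (at least 16.5-fold lower). Its neighbour ZNF138 was also lower, with 589.6, 208, 347 and 171 in P1 to P4 (2.83-fold lower), and the next gene along, ZNF273, had a log2 difference of -0.79. TRIM4, a ubiquitin ligase of the tripartite motif family, had 424, 14.6, 26.5 and 3.63 in P1 to P4 (at least 11.0-fold lower). ZNF280D, another zinc finger gene, had 211, -8.68, -11.2 and -1.46 in P1 to P4 (at least 5.49-fold lower). CHCHD2, CRYZ, TYW3, ZNF680, TRIM4 and ZNF280D were each above the limit in P1 and on none of the other 3 arrays. The compared genes on either side of CHCHD2, SUMF2 and LOC401357, had log2 differences of -0.06 and 1.44, so the low level was not shared with them.

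CHCHD2, CRYZ, ZNF680, TRIM4 and TYW3 belong to a list of 21 genes known for silencing that differs from one pluripotent line to another. It was drawn up with these genes in view, so its count says nothing independent. Of its 14 compared members 6 were at least 2-fold lower and 1 higher (42.9 and 7.14 percent, beside 2.19 and 2.16 percent of all genes). The median was -0.47, beside 0.02 over all genes. Of the 14, 7 were above the limit on 1 array only. The 5 genes named above were compared through P1 alone and so could only be lower. The lower member besides the 5 was MGMT, which encodes a DNA repair enzyme that removes alkyl groups from guanine. It had 824, 252, -5.86 and 764 in P1 to P4 and was 3.27-fold lower in P2. Its lowest level was in P3. The higher member was ZNF560, a zinc finger gene, with 17.3, 102, 101 and 292 in P1 to P4 (at least 2.66-fold higher). ZNF560 was compared through P2 alone and could only be higher. COMMD8, PYCR1 and HEPH, which are members of the list and were under the limit in P3, had log2 differences between P2 and P1 of 0.08, -0.08 and 0.26.

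NNAT and ECHDC3 were low in P2 and higher again in another group. NNAT, an imprinted gene that encodes neuronatin, a small membrane protein of the endoplasmic reticulum first found in developing brain, had 2136, 52.3, 3869 and 1578 in P1 to P4. It was 40.8-fold lower in P2, the widest difference among genes above the limit on both arrays. A second NNAT probe had 87.5 in P1 and -12.9 in P2. NNAT lies within an intron of BLCAP on chromosome 20, and BLCAP had 344 in P1 and 553 in P2, a log2 difference of 0.68. The next compared gene on the other side, CTNNBL1, had 0.21. ECHDC3, a mitochondrial gene of the enoyl-CoA hydratase family, had 1022, 111, -8.12 and 347 in P1 to P4 (9.25-fold lower in P2). Its neighbours USP6NL and PROSER2 had log2 differences of -0.03 and 0.35.

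The imprinted genes had no common direction. Of 37 listed, 25 were compared, 4 of them above the limit on 1 array only. At least 2-fold lower were 3 and higher 1 (12 and 4 percent, beside 2.19 and 2.16 percent of all genes). At 1.5-fold 7 of the 25 were lower and 5 of the 25 higher, where 7.68 and 8.09 percent of all genes were. The median was 0.12. DLK1, a membrane ligand of the Notch family expressed from the paternal copy, had 51.4, 136, 40.1 and 74.7 in P1 to P4 (2.65-fold higher in P2). CDKN1C, a cyclin-dependent kinase inhibitor expressed from the maternal copy, had 328, 155, 414 and 394 in P1 to P4 (2.11-fold lower). ZDBF2 had 94.3, 43.2, 37.2 and 68.6 in P1 to P4 (2.18-fold lower). NDN, which encodes the growth suppressor necdin, was near equal in this step, with 2487, 2702, 41.2 and 2915 in P1 to P4, and its low level was that of P3. PEG3, a zinc finger gene, was under the limit on both arrays.

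**Figure D2:**
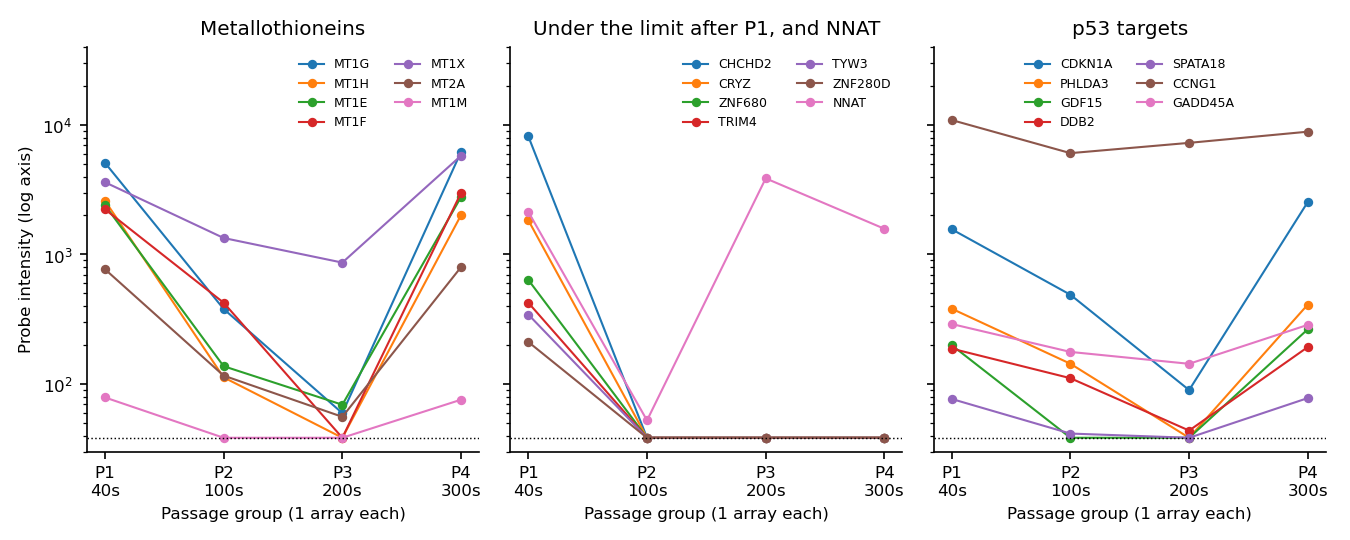
Probe intensity (log axis) of the metallothioneins, of 6 genes under the limit after P1 together with NNAT, and of p53 targets in the 4 passage groups, 1 array each, with values under the limit drawn at the dotted line. Metallothioneins and p53 targets were lower in P2 than in P1 and near the level of P1 in P4; the middle panel's genes other than NNAT stay at the limit from P2 on.

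Metallothioneins were lower together. They are small cysteine-rich proteins that bind zinc and copper, and their genes stand side by side on chromosome 16. Of 13 listed, 11 were on the array, and all 7 that could be compared were at least 2-fold lower in P2, with a median log2 difference of -2.73. Of these, 6 were above the limit on both arrays, and MT1M was compared through P1 alone, so it had to be lower. The other 4, MT1B, MT1L, MT3 and MT4, were under the limit on both arrays. Proximal promoters from RefSeq (GRCh38.p14), 250 bases before to 50 bases after the start, were at hand for MT1H, MT1X and MT2A, and are shown because the class is known to be controlled by MTF1, a zinc-sensing factor that binds metal response elements. Capitals mark the core of that element, TGCACNC or TGCGCNC on either strand. The windows are chr16:56669564-56669863, chr16:56682220-56682519 and chr16:56608334-56608633, all on the plus strand.
MT1H: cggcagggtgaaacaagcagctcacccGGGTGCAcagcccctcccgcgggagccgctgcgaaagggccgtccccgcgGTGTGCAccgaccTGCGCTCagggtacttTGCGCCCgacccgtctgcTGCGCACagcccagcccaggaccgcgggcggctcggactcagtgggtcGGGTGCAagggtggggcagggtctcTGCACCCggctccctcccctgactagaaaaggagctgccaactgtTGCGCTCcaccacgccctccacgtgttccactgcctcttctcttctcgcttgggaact
MT1X: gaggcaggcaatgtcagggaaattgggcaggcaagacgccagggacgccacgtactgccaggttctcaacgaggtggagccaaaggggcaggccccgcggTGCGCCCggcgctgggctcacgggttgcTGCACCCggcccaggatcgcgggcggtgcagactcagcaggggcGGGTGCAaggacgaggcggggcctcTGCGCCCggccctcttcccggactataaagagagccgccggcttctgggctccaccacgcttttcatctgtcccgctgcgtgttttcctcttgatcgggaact
MT2A: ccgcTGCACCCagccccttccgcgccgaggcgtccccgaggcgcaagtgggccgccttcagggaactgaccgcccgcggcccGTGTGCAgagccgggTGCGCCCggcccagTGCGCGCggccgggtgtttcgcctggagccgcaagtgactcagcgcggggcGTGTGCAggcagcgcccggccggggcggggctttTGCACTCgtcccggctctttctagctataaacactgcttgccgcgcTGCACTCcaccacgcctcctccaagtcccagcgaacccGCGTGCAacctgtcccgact
The core matched 8 times in the MT1H window, 4 times in that of MT1X and 8 times in that of MT2A. Of all 27305 promoter windows of this length, 29.3 percent held at least 1 match, 2.27 percent at least 3 and 0.593 percent at least 4. A match is a run of letters and not a measured site.

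MT1H had 2604, 112, 9.02 and 2013 in P1 to P4 and was 23.2-fold lower in P2. MT1E had 2404, 137, 69.1 and 2777 in P1 to P4 (17.5-fold lower). MT1G, the brightest metallothionein probe in P1, had 5109, 379.6, 59.5 and 6201 in P1 to P4 (13.5-fold lower). All 3 were lower still in P3 and back near or above the level of P1 in P4. MT2A, the form expressed in most tissues, had 769.7, 116, 55.8 and 799 in P1 to P4 (6.63-fold lower). MT1F had 2235, 424, 37.3 and 2992 in P1 to P4 (5.27-fold lower). MT1X had 3613, 1340.5, 865 and 5795 in P1 to P4 and the smallest measured fold of the class, 2.70-fold lower. MT1M, which was dim, had 78.7, -7.19, -6.14 and 75.6 in P1 to P4 (at least 2.05-fold lower). In the 6 members other than MT1M the level was lower in P2 than in P1 and lower again in P3, and P4 was closer to P1 than P2 was. These genes are near-identical copies, and how far their probes read each other's transcripts was not tested. Their neighbours outside the cluster, BBS2 and NUP93, had log2 differences of -0.34 and -0.07. Of the 22 compared genes for zinc and copper handling, none was at least 2-fold different, and the median was 0.07.

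Most p53 targets were lower in P2, by less. The tumour suppressor p53 activates genes for growth arrest, repair and cell death. Of 34 listed targets, 28 were compared, and 22 of them were below 0 (78.6 percent, beside 47.3 percent of all genes). GDF15 and PLK2 were compared through P1 alone and could only be below 0. At least 2-fold lower were 3 (10.7 percent, beside 2.19 percent of all genes), none was at least 2-fold higher, and the median was -0.49. CDKN1A, the cyclin-dependent kinase inhibitor p21, had 1566, 489, 89.7 and 2546 in P1 to P4 (3.21-fold lower in P2). GDF15, a stress-induced secreted factor, had 199, 38.4, -5.27 and 265 in P1 to P4 (at least 5.18-fold lower). PHLDA3, an inhibitor of AKT, had 381, 143, 15.01 and 411 in P1 to P4 (2.66-fold lower). P3 had the lowest level of CDKN1A and PHLDA3, GDF15 was under the limit in both P2 and P3, and in all 3 genes P4 was above P1. SPATA18, a mitochondrial quality gene, had 76.6 in P1 and 41.4 in P2 (1.85-fold lower), and CCNG1, the cyclin G1 gene, 10914 in P1 and 6059 in P2 (1.80-fold lower). DDB2, a damage recognition protein, had 188 in P1 and 111 in P2 (1.69-fold lower). On the other side of 0, ZMAT3 had 16575 in P1 and 22894 in P2 (1.38-fold higher), but its dimmest detected probe had a log2 difference of -0.44.

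A stretch of the X chromosome held many of the lower genes. Of 425 compared X genes, 24 were at least 2-fold lower (5.65 percent, beside 2.19 percent of all genes). At least 2-fold higher were 10 (2.35 percent, beside 2.16 percent). Of those 24, 17 lay in a run of 75 consecutive compared genes from RADX to GPC3, a run whose ends were chosen after the values were seen. They made up 22.7 percent of that run. In it none was at least 2-fold higher, 52 were below 0, 31 were at least 1.5-fold lower, and the median log2 difference was -0.44. The other 350 compared X genes had 10 higher, 7 lower (2 percent, near the share of all genes) and a median of 0.04. When all compared genes were cut in chromosome order into 462 blocks of 25, the block medians ran from -0.66 to 0.42, with the 5th and 95th percentiles at -0.20 and 0.22. The lowest block was the one from TENM1 to GPC3 at the end of this stretch, and the highest was also on the X chromosome, from TCEAL2 to NRK just before it. The median difference from P1 was -0.04 in P3 and -0.02 in P4. Of its 75 genes 46 had their lowest value of the 4 arrays in P2, beside 99 of the other 350 X genes, but the stretch was picked on low values in P2.

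HS6ST2, which adds sulfate to heparan sulfate chains, had 391.7, 77.8, 242 and 377 in P1 to P4 (5.04-fold lower in P2). MBNL3, a splicing factor of the muscleblind family, had 226, 51.4, 551 and 198 in P1 to P4 (4.40-fold lower). IGSF1, a membrane glycoprotein of the immunoglobulin superfamily, had 1003, 262, 1089 and 609 in P1 to P4 (3.83-fold lower). In these 3 genes P2 had the lowest of the 4 levels, and their second probes went the same way, from 291 to 28.6 for HS6ST2, from 87.3 to 16.3 for MBNL3 and from 502 to 107 for IGSF1. NXT2, a messenger RNA export factor, had 657, 178, 479 and 443 in P1 to P4 (3.69-fold lower). ACSL4, which activates long polyunsaturated fatty acids, had 2826, 1242, 2183 and 2198 in P1 to P4 (2.28-fold lower). DOCK11, an activator of the small GTPase CDC42, had 993, 419, 902 and 957 in P1 to P4 (2.37-fold lower). AMMECR1 had 1875, 835, 1601 and 1627 in P1 to P4 (2.24-fold lower), the long non-coding RNA gene FIRRE 662 in P1 and 291 in P2 (2.28-fold lower), and GPC3, a cell surface proteoglycan, 706 in P1 and 348 in P2 (2.03-fold lower). Not all genes of the stretch were low. PRPS1, an enzyme of nucleotide synthesis, had 3519.8 in P1 and 5511 in P2 (1.57-fold higher), and the ribosomal protein gene RPL39 had 16816 in P1 and 16920.3 in P2. Other probes of the stretch's genes, 33 of them above the limit, were below 0 in 27 cases and at least 2-fold lower in 10. SOX3, a neural and pituitary transcription factor that lies further along the X chromosome outside the stretch, had 1982, 711, 1750.0 and 2004 in P1 to P4 (2.79-fold lower).

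**Figure D3:**
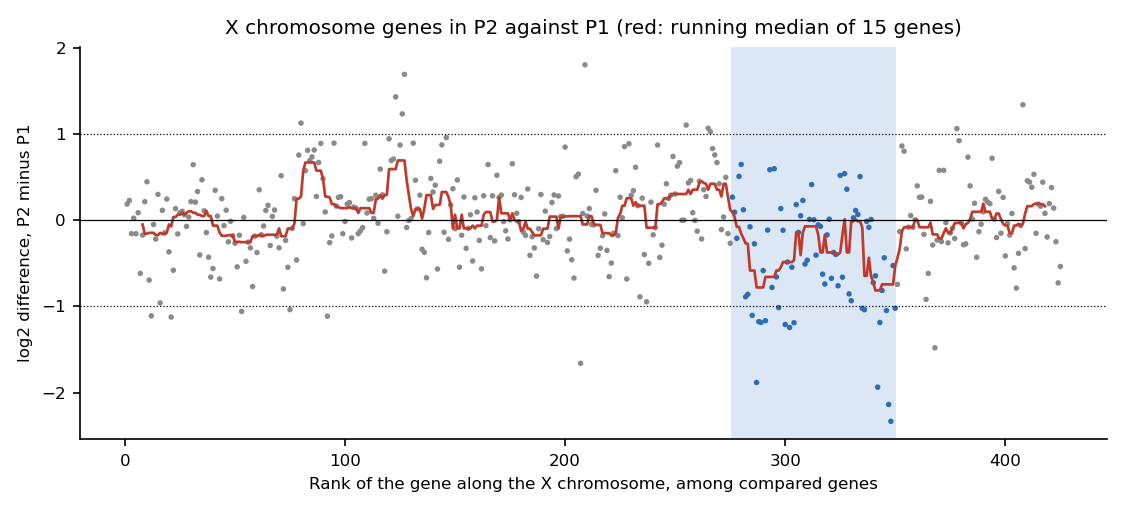
Log2 difference, P2 minus P1, of the 425 compared genes of the X chromosome (points) by rank along the chromosome, with the running median of 15 genes in red and the stretch from RADX to GPC3 shaded. Dotted lines mark 2-fold; 17 genes of the shaded stretch lie below the lower line and none above the upper one.

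Small non-coding RNAs differed by class. Spliceosomal RNAs form the catalytic core of the spliceosome, and Cajal body RNAs (SCARNA) guide their modification. Of 21 compared, 20 were below 0 (95.2 percent, beside 47.3 percent of all genes), 7 were at least 2-fold lower (33.3 percent, beside 2.19 percent) and none was at least 2-fold higher, with a median of -0.78. RNU4-1, SCARNA11 and RNU105C were compared through P1 alone and could only be below 0. The class was taken from gene symbols, and whether each member, RNU105C among them, is of these kinds was not checked. SCARNA8 had 785, 209, 212 and 151 in P1 to P4 (3.75-fold lower in P2), and SCARNA13 had 764, 209, 228 and 149.7 in P1 to P4 (3.66-fold lower). The spliceosomal RNAs of the minor class, RNU4ATAC and RNU6ATAC, were 3.44-fold lower and 2.22-fold lower. Of the major class, RNU4-1 was at least 2.72-fold lower and RNU4-2 2.45-fold lower, copies whose probes may read the same RNA. In P3 and P4 the levels of SCARNA8 and SCARNA13 were also under those of P1. RNU11 was the 1 member above 0, at 0.13.

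Box C/D RNAs, which guide methylation of ribosomal RNA, had 12 of 57 compared members at least 2-fold higher, 7 lower and a median of 0.25. Box H/ACA RNAs, which guide pseudouridine formation, had 7 of 57 higher, 3 lower and a median of 0.15. These counts are 21.1 percent higher and 12.3 percent lower of the box C/D RNAs, and 12.3 and 5.26 percent of the box H/ACA RNAs, beside 2.16 and 2.19 percent of all genes. Of the 57 in each class, 10 box C/D and 17 box H/ACA RNAs were above the limit on 1 array only. The direction of those was fixed by the array they were seen on. SNORD14A had 78.5, 312, 205 and 177 in P1 to P4 (3.97-fold higher in P2). SNORA3B had 59.8, 188, 145 and 132 in P1 to P4 (3.14-fold higher). SNORD22, SNORD31 and SNORD30, encoded in introns of SNHG1 on chromosome 11, were at least 2.21-fold higher, 2.76-fold higher and 3.13-fold higher, and their host transcript SNHG1 had 2042, 4399.6, 3203 and 3135 in P1 to P4 (2.15-fold higher). Another host gene, SNHG9, had 164, 643, 387 and 362 in P1 to P4 (3.93-fold higher). Lower in P2 were the 3 copies of the U3 RNA, SNORD3A, SNORD3C and SNORD3D, at 2.35-fold lower, 2.22-fold lower and 2.27-fold lower. SNORD3A had 5830.3, 2481, 1212 and 1660.3 in P1 to P4. The copies are near identical, so the 7 lower box C/D RNAs include 3 that may be 1 observation. Likewise, the 3 higher ones from SNHG1 share 1 host transcript and may not be separate observations. Whether these probes read the mature RNA or its precursors was not tested.

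The microRNA genes MIR302C and MIR25 were at least 2-fold higher. MIR302C, of the cluster that is abundant in human embryonic stem cells, had 78.1, 176, 175 and 236 in P1 to P4 (2.26-fold higher in P2), and MIR25 had 13.3, 102, 8.17 and 47.4 in P1 to P4 (at least 2.65-fold higher). Their mature 3-prime arms from RefSeq are shown for identification, with the seed, bases 2 to 8, in capitals. They lie at chr4:112648366-112648388 and chr7:100093571-100093592, both on the minus strand of GRCh38.p14, and their seeds differ.
hsa-miR-302c-3p: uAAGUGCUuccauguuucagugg
hsa-miR-25-3p: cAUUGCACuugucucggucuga
These probes carry the gene's name, and whether they read the mature RNA was not tested. Of 41 compared microRNA genes and host transcripts, 4 were at least 2-fold higher (9.76 percent, beside 2.16 percent of all genes) and none lower, and 11 of the 41 were above the limit on 1 array only.

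Among the higher genes, PKIB led those above the limit on both arrays. It encodes an inhibitor of cyclic AMP-dependent protein kinase A, and had 251, 1674, 1109.7 and 1731 in P1 to P4 (6.67-fold higher in P2). It was high in P2, P3 and P4. Its second probe was under the limit on both arrays. Of the 20 compared genes of protein kinase A signalling, 2 were at least 2-fold higher (10 percent, beside 2.16 percent of all genes) and none lower. In this class 11 genes were above 0 and 9 below, and the median was 0.05. The 2 higher genes were PKIB and PDE4B, a phosphodiesterase that breaks down cyclic AMP. PDE4B had 86.4, 181, 99.8 and 81.6 in P1 to P4 (2.09-fold higher). ADM5 had 39.6, 197, 156 and 115 in P1 to P4 (4.97-fold higher) and rests on a P1 value close to the limit. RASSF1, a tumour suppressor with a RAS association domain, had 47.3, 189.7, 119.9 and 93.9 in P1 to P4 (4.01-fold higher), also from a P1 value close to the limit. Its second probe had 14.4 in P1, under the limit, and 59.9 in P2. PRELID3A had 83.7 in P1 and 332 in P2 (3.97-fold higher). PGGHG, a glucosidase that acts on collagen-linked sugars, had 125 in P1 and 445 in P2 (3.54-fold higher). CAVIN3, a coat protein of caveolae, had 205 in P1 and 693 in P2 (3.39-fold higher). PKDCC, a secreted kinase, had 221 in P1 and 755 in P2 (3.42-fold higher), with a second probe at 118 and 535. CYTH2, an exchange factor for ARF GTPases, had 276 in P1 and 989 in P2 (3.58-fold higher), but its 2 other detected probes were lower in P2, from 75.4 to 57.2 and from 173 to 160.0.

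Several genes of neurons and secretory granules were among the higher ones, and others of the same list were lower. SCG2, a granule protein of neuroendocrine cells, had 15.9, 501, 228 and 291 in P1 to P4 (at least 13.0-fold higher in P2), the widest upward bound. CHODL, a membrane lectin found on motor neurons, had 46.3, 224, 87.6 and 27.3 in P1 to P4 (4.84-fold higher) and rests on a P1 value close to the limit. MIR124-1HG, the host transcript of a neuronal microRNA, had 279, 1219, 589 and 584 in P1 to P4 (4.37-fold higher), with a second probe at 164 and 632. STMN2, a regulator of neuronal microtubules, had 64.4, 138, 581 and 191 in P1 to P4 (2.14-fold higher), and its dimmest detected probe a log2 difference of 0.51. Going the other way, CHGA, the granule protein chromogranin A, had 2319, 706, 2377 and 709 in P1 to P4 (3.29-fold lower). Of 26 compared genes of the neural list, 5 were at least 2-fold higher and 2 lower, CHGA and SOX3 (19.2 and 7.69 percent, beside 2.16 and 2.19 percent of all genes). SCG2, 1 of the 5, was compared through P2 alone and could only be higher. At 1.5-fold 5 were higher and 7 lower, and the median was -0.01. Outside the list, VGF, a neuropeptide precursor, had 1078, 3522, 2069 and 1621 in P1 to P4 (3.27-fold higher), and SOX21, a transcription factor of neural progenitors, 732, 2356, 889.7 and 321 in P1 to P4 (3.22-fold higher). OLIG2, a transcription factor of oligodendrocyte progenitors, had 197, 0.49, 54.3 and 37.9 in P1 to P4 (at least 5.13-fold lower). The summed neural markers differed by less than these genes, as given above, and PAX6 and SOX1 were under the limit on both arrays.

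Other higher genes belong to signalling and early lineage classes. LEFTY1, a secreted inhibitor of nodal, had 175, 663, 388 and 610.4 in P1 to P4 (3.80-fold higher in P2). FST, the activin-binding protein follistatin, had 798, 1639, 463 and 771 in P1 to P4 (2.05-fold higher). NODAL itself had 80.2 in P1 and 139 in P2 and LEFTY2 119 in P1 and 205 in P2. INHBE, an inhibin beta subunit, was lower, with 611, 221, 365 and 526 in P1 to P4 (2.76-fold lower). The 21 compared nodal and TGF-beta genes had a median of -0.03, so the class had no common direction. CDX4, a caudal homeobox gene of posterior mesoderm, had 71.5, 249, 327 and 359.6 in P1 to P4 (3.49-fold higher), and AFP, alpha-fetoprotein of yolk sac and fetal liver, 60.9, 212, 111 and 86.7 in P1 to P4 (3.48-fold higher). The other compared members of the mesoderm and endoderm lists, 3 and 5 of them, were within 2-fold. Those 3 of the mesoderm list were all below 0, 1 of them a bound, and the list's median was -0.37. The endoderm list, AFP included, had 3 genes above 0 and 3 below, with a median of -0.004. Of the trophoblast and amnion list 3 genes could be compared, with a median of -1.05. IGFBP3, a binding protein of insulin-like growth factors, had 125 in P1 and 50.9 in P2 (2.46-fold lower), and GABRP, a GABA receptor subunit, 178 in P1 and 86.3 in P2 (2.06-fold lower), while the 7 markers of this lineage given above were under the limit. CYP26A1, a retinoic acid-degrading enzyme, had 268 in P1 and 617 in P2 (2.30-fold higher) and MEIS2, a homeobox gene, 30.3 in P1 and 91.5 in P2 (at least 2.38-fold higher). ALDH1A3, which makes retinoic acid, was lower, with 292 in P1 and 110.2 in P2 (2.65-fold lower). BMP7, a bone morphogenetic protein, had 349, 129, 193 and 312 in P1 to P4 (2.70-fold lower), while ID1, a BMP-induced inhibitor of differentiation, had 1929.6 in P1 and 1449 in P2 (1.33-fold lower), and 0.83 on the log2 scale, the other way, on its dimmest detected probe. Of 26 compared Wnt targets and components, the 1 gene at least 2-fold different was FZD5, a Wnt receptor, with 197 in P1 and 406 in P2 (2.06-fold higher). That 1 gene was 3.85 percent of the list, beside 2.16 percent of all genes.

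The remaining wide bounds were mixed in kind. TM4SF18, a membrane protein of the L6 family, had 17.5, 196, 30.3 and 62.6 in P1 to P4 (at least 5.11-fold higher in P2), with a second probe at 38.2 and 188. SFTA1P, a surfactant-associated pseudogene, had 7.12, 176, 5.33 and 61.8 in P1 to P4 (at least 4.58-fold higher). CALCB, the beta form of calcitonin gene-related peptide, had 5.70, 135, 155 and 164 in P1 to P4 (at least 3.51-fold higher). SPEG, a kinase of striated muscle, had 28.2 in P1 and 139 in P2 (at least 3.62-fold higher). RGPD1 was at least 4.43-fold higher, RPL32P3 at least 3.97-fold higher and NUDT4B at least 3.08-fold higher. They belong to families of near-identical copies, and which copy their probes read was not tested. Among the lower genes above the limit on both arrays were CTSF, a lysosomal cysteine protease, with 376, 94.2, 111 and 107 in P1 to P4 (3.99-fold lower), and CTCFL, a germline paralogue of CTCF, with 320.4, 84.1, 47.2 and 114 in P1 to P4 (3.81-fold lower). HTRA1, a secreted serine protease, had 426, 116, 176 and 179 in P1 to P4 (3.67-fold lower).

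Core pluripotency genes had a median slightly below 0. POU5F1 had 4101 in P1 and 4345 in P2, NANOG 1672 in P1 and 1246 in P2 and SOX2 5470.1 in P1 and 5224 in P2, log2 differences of 0.08, -0.42 and -0.07. DNMT3B, a de novo DNA methyltransferase abundant in these cells, had 7589 in P1 and 6651 in P2 (-0.19). Of 31 compared core genes none was at least 2-fold higher, and the median was -0.12. At least 2-fold lower were 2 (6.45 percent, beside 2.19 percent of all genes). Those were UTF1, a chromatin-bound factor of undifferentiated cells, with 125, 11.0, 90.4 and 271 in P1 to P4 (at least 3.25-fold lower in P2), and TERF1, a telomere-binding protein, with 6142, 2552, 4145 and 3804 in P1 to P4 (2.41-fold lower). The lone naive-associated gene at least 2-fold different, of 7 compared (14.3 percent), was DPPA5, with 87.2, 13.8, 7.96 and 29.2 in P1 to P4 (at least 2.26-fold lower). UTF1 and DPPA5 were compared through P1 alone and could only be lower. The 5 compared genes associated with HERV-H, an endogenous retrovirus whose long terminal repeats act as promoters in these cells, had a median of -0.95 and were all below 0, as were 47.3 percent of all genes. One of them, ABHD12B, was compared through P1 alone and could only be below 0. ADGRG2, an adhesion receptor, had 469, 225, 465 and 592 in P1 to P4 (2.08-fold lower), and SCGB3A2, a secretoglobin, 1461, 735, 1719 and 1144 in P1 to P4 (1.99-fold lower).

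Cell-cycle classes had medians slightly above 0. Of 53 compared mitosis and spindle genes 41 were above 0 (77.4 percent, beside 52.7 percent of all genes), with a median of 0.24. At least 2-fold higher was 1 (1.89 percent, beside 2.16 percent of all genes). CENPE, a kinetochore motor, had 905 in P1 and 1509.6 in P2 (1.67-fold higher), KIF2C, a microtubule-depolymerising kinesin, 646 in P1 and 976 in P2 (1.51-fold higher), and PRC1, which bundles the spindle midzone, 2506 in P1 and 3611 in P2 (1.44-fold higher). NDC80, a kinetochore protein, was on the other side of 0, with 867 in P1 and 648 in P2. DNA replication genes had 33 of 46 above 0 and a median of 0.19, and DNA repair genes 32 of 42 and 0.15. MCM4, a helicase subunit, had 3789 in P1 and 5304 in P2 (1.40-fold higher), and ERCC3, a helicase of TFIIH and nucleotide excision repair, 377 in P1 and 769.8 in P2 (2.04-fold higher). EZH2, the histone methyltransferase of Polycomb complex PRC2, had 181, 394, 282 and 247 in P1 to P4 (2.18-fold higher), and 3 probes of it gave 2.18, 2.08 and 2.004-fold. UHRF1, which recruits the maintenance DNA methyltransferase, had 1904 in P1 and 3737 in P2 (1.96-fold higher), with a log2 difference of 0.16 on its dimmest detected probe. TET1, which oxidises methylcytosine, had 2177 in P1 and 1265 in P2 (1.72-fold lower).

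In the band 20q11.21, often gained in human embryonic stem cells, none of 15 compared genes was at least 2-fold different and the median was 0.50. Of the 15, 10 were above 0 (66.7 percent, beside 52.7 percent of all genes) and 5 below. At 1.5-fold 7 of the 15 were higher and 1 of the 15 lower, where 8.09 and 7.68 percent of all genes were. The lowest was DUSP15, with 76.5 in P1 and 45.6 in P2 (1.68-fold lower). HM13, a signal peptide peptidase, had 181, 345, 635 and 592 in P1 to P4 (1.90-fold higher in P2), TPX2, a spindle assembly factor, 1269, 1944, 4137 and 4098 in P1 to P4 (1.53-fold higher), and BCL2L1, an inhibitor of cell death, 2472, 2951, 4378 and 5831 in P1 to P4 (1.19-fold higher). Their P2 levels lay between those of P1 and those of the later groups on these probes. The dimmest detected probe of HM13 had a log2 difference of -0.06.

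Collagens, the fibres and networks of the extracellular matrix, had 16 of 26 compared members above 0 (61.5 percent, beside 52.7 percent of all genes). Their median was 0.30. At 2-fold 1 was higher and 1 lower (3.85 percent each, beside 2.16 and 2.19 percent of all genes), and 4 of the 26 were above the limit on 1 array only. COL11A1, a fibrillar collagen, had 67.2 in P1 and 151 in P2 (2.25-fold higher), and COL18A1, the basement membrane collagen that carries endostatin, 1721 in P1 and 2930.4 in P2 (1.70-fold higher). COL4A6, a basement membrane collagen of the X stretch, was lower, with 712 in P1 and 331 in P2 (2.15-fold lower). LAMA5, a laminin chain on which these cells adhere, had 3892 in P1 and 6237 in P2 (1.60-fold higher). ACTA2, smooth muscle actin, had 455, 125, 75.6 and 256 in P1 to P4 (3.63-fold lower), and was 1 of 20 compared fibroblast and matrix genes, the other 19 of which were within 2-fold.

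**Figure D4:**
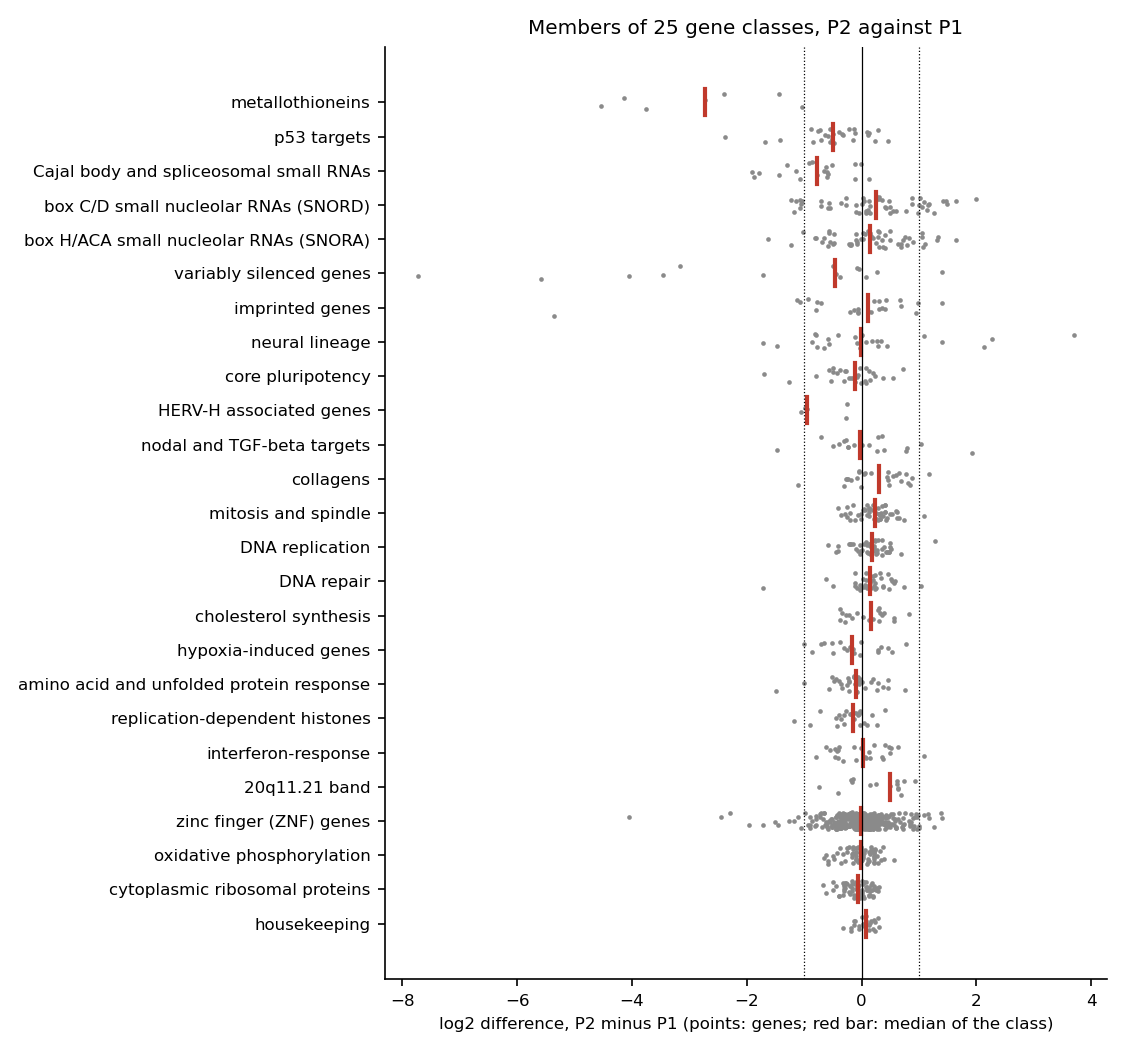
Log2 difference, P2 minus P1, of each compared member (points) of 25 gene classes, with the class median as a red bar and dotted lines at 2-fold. The median of the metallothioneins lies lowest, followed by that of the HERV-H associated genes. Those of Cajal body and spliceosomal RNAs, p53 targets and variably silenced genes also lie left of 0. Those of ribosomal protein, oxidative phosphorylation and housekeeping genes lie close to 0.

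Stress and metabolic classes showed small or scattered differences. Amino acid and unfolded protein response genes had a median of -0.10, with 26 of 36 below 0 (72.2 percent, beside 47.3 percent of all genes). In this class 2 genes were at least 2-fold lower (5.56 percent, beside 2.19 percent of all genes). CHAC1, which degrades glutathione, had 108, 24.5, 35.9 and 55.7 in P1 to P4 (at least 2.81-fold lower in P2). ATF3, a stress transcription factor, had 451 in P1 and 225 in P2 (2.004-fold lower). CRYAB and HSPB2, small heat shock genes that stand next to each other on chromosome 11, had 125, 14.6, 163 and 29.4 in P1 to P4 and 123, 23.02, 119 and 33.7 in P1 to P4. Both were under the limit in P2 and P4, at least 3.25-fold lower and at least 3.20-fold lower in P2, and the genes on either side, CFAP68 and DIXDC1, had log2 differences of -0.13 and -0.04. Hypoxia-induced genes had a median of -0.17, cholesterol synthesis genes 0.16 and glycolysis genes 0.07. TXNIP, an inhibitor of thioredoxin, had 209, 105, 1133 and 591 in P1 to P4 (1.99-fold lower). Interferon-response genes had a median of 0.03, with MX2, an antiviral GTPase, as the 1 gene at least 2-fold higher, at 23.4 in P1 and 81.5 in P2 (at least 2.12-fold higher). That 1 gene was 3.85 percent of the class, beside 2.16 percent of all genes. Replication-dependent histone genes had 20 of 25 below 0 (80 percent, beside 47.3 percent of all genes) and a median of -0.15, with 5 of the 25 above the limit on 1 array only.

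Several large classes had medians near 0. None of the 71 oxidative phosphorylation genes, 72 cytoplasmic and 76 mitochondrial ribosomal protein genes, 41 proteasome genes or 23 housekeeping genes was at least 2-fold different, and their medians were -0.01, -0.05, -0.03, 0.06 and 0.07. Zinc finger genes, 354 compared, had 11 at least 2-fold lower and 6 higher with a median of -0.01. These were 3.11 and 1.69 percent, beside 2.19 and 2.16 percent of all genes. Solute carriers, 222 compared, had 4 lower and 4 higher (1.80 percent each). Of the 68 classes with at least 3 compared members, 30 had a median within 0.1 of 0, 6 had one of 0.2 or above and 9 one of -0.2 or below.

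Second probes bear on how far 1 probe stands for its gene. They read the same 2 RNA samples and are no replicates of the passage groups. Among the 513 genes past 2-fold, 325 had a single probe on the array and 86 had others only under the limit. The remaining 102 had another detected probe; in 94 of them the probes agreed in direction, and in 57 the others reached 1.5-fold the same way. In 8 genes they went opposite ways, C1orf210, CYTH2, DUSP13B, GSN, HDAC7, NPY5R, WLS and ZXDC. ZNF280D had 2 further probes, at 144 in P1 and -0.50 in P2 and at 65.2 and 1.69. MT1H had a second probe at 94.5 and 1.17. For CHCHD2, CRYZ, TYW3, SCG2 and the other genes with a single informative probe, no such comparison could be made.

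**Figure D5:**
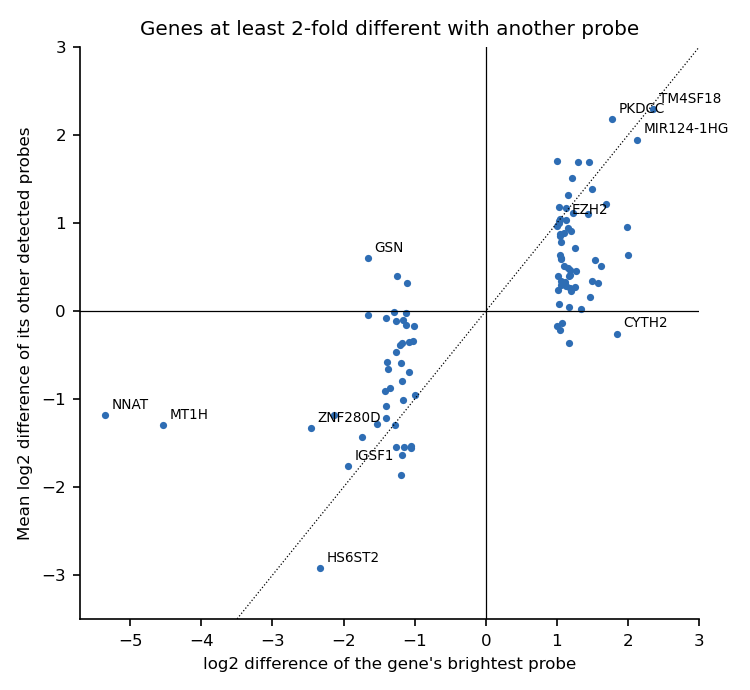
Mean log2 difference of a gene's other detected probes (vertical) against that of its brightest probe (horizontal), P2 minus P1, for the 102 genes past 2-fold with another detected probe. Points at the upper left and lower right are the 8 genes whose probes went opposite ways. The other probes of NNAT and MT1H were under the limit in P2, so their values on the vertical axis are set by the limit.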

How the data were processed

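The authors' deposited values were linear probe intensity values of 47323 probes on each of 4 Illumina bead arrays, 1 per passage group. From the values, background had been subtracted, since 25.2 to 25.4 percent of an array's probes were below 0. The array medians of 17.4 to 17.5 also show that the arrays had been brought close to a common distribution, which hides any difference in total RNA. The method and software are not given in the sources used here. Per the labels' protocols, RNA was cleaned on columns with DNase I and turned into biotin-labelled cRNA.

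Probes were named through the platform's annotation: 30113 had 1 symbol, 8 several and 17202 none. Of those named, 30074 were updated by Entrez identifier to RefSeq (GRCh38.p14), used for names, gene order and the printed sequences. The 144 probes for the Y chromosome or the X-inactivation centre were left out. Each array was floored at its 60th percentile and log2 transformed, and each gene was read from its brightest probe on average over all arrays. Genes above the floor on at least 1 of P1 and P2 were compared, and a 2-fold difference was used to count them. The unnamed probes were counted only: 4508 were above the floor, 97 at least 2-fold higher and 60 lower. Gene classes were 48 written lists and 20 families taken from symbols.

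Named genes were the 15 highest and 15 lowest differences among genes above the floor on both arrays, the 8 widest bounds each way, up to 6 members of each described class, and a few fixed genes. VGF, SOX21, other genes of the X stretch, flanking genes, host transcripts and the genes named for their second probes were chosen after their values were seen. Members and lists were chosen with earlier results of these data known. With 1 array per group no test was made, and the number of arrays limits the precision. The calculation was tested on simulated data. Alternatives changed the normalization, the floor, the filter and the probe. Python 3.11.15, numpy 2.4.6, pandas 2.3.3 and matplotlib 3.10.9 were used.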

Additional observations from a re-analysis of the deposited data

How the results depend on the processing

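The floor and the treatment of low values moved the counts most. Against 255 genes at least 2-fold higher and 258 lower, a floor at the 50th percentile gave 439 and 468, a floor at the 75th percentile 86 and 85, and log2(value + 50) without a floor 97 and 118. The X stretch then had 11 genes at least 2-fold lower at the 75th percentile and 8 with the offset, in place of 17. The other settings, quantile normalization, centring, 1 floor for both arrays, other filters and other probes, gave 215 to 259 higher and 195 to 274 lower. Without the filter on detection, class medians took in genes under the limit and became -1.43 for metallothioneins, -0.25 for HERV-H genes, -0.11 for Cajal body and spliceosomal RNAs and 0.0027 for the trophoblast list, whose median had been -1.05. That list had -0.22 with the floor at the 50th percentile, and the silencing list -1.10 with the floor at the 75th. CYTH2 turned to -0.40 on its dimmest detected probe. Of 1589 recomputed log2 differences of 150 named genes, 90 others moved by at least 1.5-fold. No paired analysis was possible because each group had 1 array. Folds of dim genes and all bounds rest on the floor, and a value of 1 array has no error.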
